A study of Saccharomyces cerevisiae with 26 samples.

Results

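The genes described here, called the members, are 10 genes of iron uptake and iron starvation in budding yeast: FIT1, FIT2, FIT3, SIT1, ARN1, ARN2, ENB1, FET3, FTR1 and TIS11. They were taken as every probe set to which the array's probe annotation gives one of these names, which found 1 probe set for each of the 10 genes, out of 5656 genes with a probe set of their own. The members were chosen by measured values, since FIT1, SIT1 and TIS11 were among the largest rises from glucose to acetate medium, so that rise is described below and not tested. All 10 members passed the filter on low signals, as did 5464 of the 5656 genes.

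Budding yeast takes up iron in part as free ions, which surface reductases reduce and which the ferroxidase FET3 and the permease FTR1 then carry through the plasma membrane as 1 complex. It makes no siderophores of its own, but it takes iron from siderophores, the iron chelators that other microbes release, through the transporters of the ARN family and with the help of cell wall mannoproteins that hold these chelates close to the cell. When iron runs short, the transcription factors AFT1 and AFT2 turn these genes on, together with TIS11, a protein that binds mRNAs of iron-using enzymes and speeds their decay.

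The series measured total RNA of Saccharomyces cerevisiae on Affymetrix YG_S98 arrays, with 26 arrays in 13 groups of 2. The YPD group grew in rich medium with 2% glucose and the YPA group in medium with 2% potassium acetate, the respiring culture that precedes sporulation. In the sporulation groups, cells were pre-grown at 30 °C in both media in turn and then moved at room temperature to SPO. SPO is a medium of 0.3% potassium acetate at pH 7 with no nitrogen source listed. The cells were 4 h later either sampled or collected on a filter and put in fresh SPO. Sampling before filtration gave the groups SP4 in a first set of arrays (whose label is shorter and names no SPO medium) and SR4 in a second set. Fresh SPO alone gave SF5, 1 h after filtration, in the first set, and SR5 and SR8, 1 h and 4 h after filtration, in the second. SPO with 0.4% dimethyl sulfoxide (DMSO), a solvent, gave SD5 at 1 h and SD8 at 4 h, and SPO with benomyl, a drug that depolymerizes microtubules, gave SB5 at 1 h and SB8 at 4 h. The benomyl was dissolved from a stock of 30 mg/ml in DMSO, and its final concentration cannot be read with certainty from the labels. Pre-chilled SPO with DMSO at 10 °C gave SC5 at 1 h and SC8 at 4 h. A temperature after filtration is noted for these cold groups only. The controls for cold, SR5 and SR8, are not labelled as holding DMSO. No strain name or genotype is used here, and the labels do not say whether the 2 arrays of a group came from separate cultures, so p-values measure the spread between arrays, which may be technical.

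The first set holds 16 arrays and 8 groups and the second 10 arrays and 5 groups. Correlations between the 2 arrays of a group over all probe sets ran from 0.958 for SB5 and 0.967 for SR5 to 0.996 for SB8. The SB5 arrays stood apart from each other, with a spread of their difference (SD over all tested probe sets) of 0.622 on the log2 scale against 0.182 for SB8. As a check of the labels, the mean log2 signal of 9 meiotic genes was 5.37 and 5.43 in YPD, 6.21 and 6.05 in YPA, 8.16 and 8.11 in SP4 and 10.2 and 10.3 in SD8. It was 7.89 and 7.39 in SB5 against 9.40 and 8.93 in SD5, and 7.65 and 7.45 in SC8 against 9.57 and 9.71 in SR8, and it was lower than in the controls also in SB8 (9.56 and 9.71) and in SC5 (7.61 and 7.52, against 8.07 and 8.10 in SR5). Of the 9 meiotic genes, 8 fell and 1 rose in benomyl at 1 h, 5 fell and 1 rose in benomyl at 4 h, 4 fell in cold at 1 h and 7 fell in cold at 4 h, so lower meiotic transcripts moved with every treatment comparison below. Averaged over 7 genes, markers of haploid mating cells lay between 5.85 and 6.80 on all arrays. Their part in the results below was not tested. In bulk RNA, fewer cells with a transcript and less transcript per cell cannot be told apart.

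Averaged over the 10 members, the signal was lowest in glucose (mean log2 7.21) and highest in acetate (9.81), benomyl at 4 h (9.72) and the second-set sporulation culture before filtration (9.66). Between these extremes lay cold at 1 h (9.12), SP4 (9.06), the second-set filtered cells at 1 h (8.86) and 4 h (8.83), cold at 4 h (8.83), benomyl at 1 h (8.82) and DMSO at 1 h (8.71). The first-set filtered cells and the DMSO cells at 4 h were lowest among the sporulation groups, both at 8.33. All log2 values here are quantile-normalized probe set signals, and since a probe set has its own brightness, levels are compared only within a gene.

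**Figure D1:**
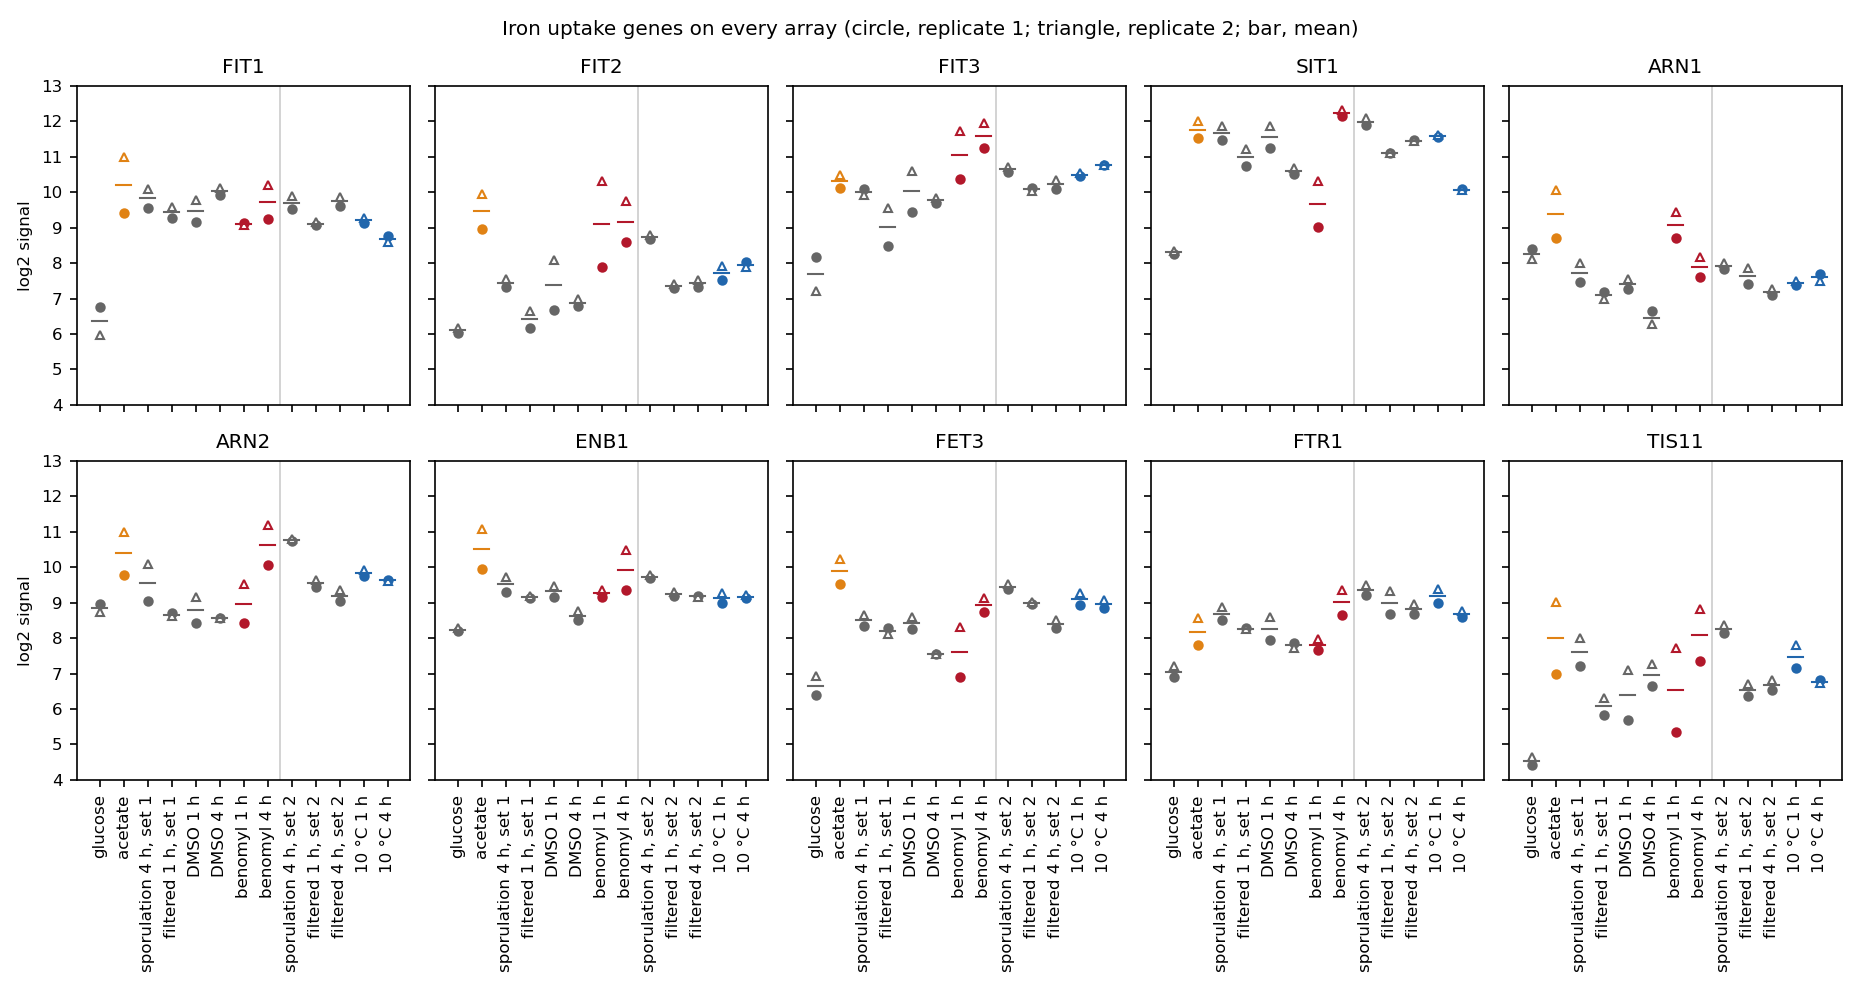
Log2 signal of the 10 iron uptake genes on all 26 arrays, by group, with circles for replicate 1, triangles for replicate 2 and a bar at the mean of the pair; the grey line separates the first from the second array set, with benomyl in red, 10 °C in blue and acetate in orange. SIT1 runs from 8.25 in glucose to 12.31 in benomyl at 4 h, and 9 of the 10 genes lie above their DMSO control in benomyl at 4 h.

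Since acetate against glucose is the contrast by which the members were chosen, its values are given as a description. All 10 genes were higher in acetate, with a median difference of 2.91 on the log2 scale and a range from 1.13 for FTR1 to 3.83 for FIT1, and for all 10 both acetate arrays lay above both glucose arrays. The third scan day held the glucose arrays and no others, so glucose and scan day cannot be told apart. The YPA arrays differed widely between themselves, with replicate 2 above replicate 1 for all 10 members and a median difference of 1.06. From acetate to 4 h of sporulation in the first set, a comparison that shares the acetate arrays, 1 of 10 members was above 0 (FTR1, by 0.51) and the median was -0.61.

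The cell wall mannoproteins FIT1, FIT2 and FIT3 are anchored in the wall, where they retain siderophore-bound iron. FIT1 was at 6.78 and 5.98 in glucose and at 9.41 and just above 11 in acetate. Through sporulation its group means ran from 8.67 in SC8 to 10.03 in SD8. FIT1 measured 9.16 and 9.79 in DMSO at 1 h, 9.93 and 10.12 in DMSO at 4 h, 9.12 and 9.09 in benomyl at 1 h and 9.24 and 10.20 in benomyl at 4 h. Its range across the 11 sporulation groups, 1.36, was near the middle of all tested probe sets (percentile 61.8), whereas over all 13 groups its range of 3.83 stood at percentile 96. FIT1 at 10 °C fell below its controls at 4 h, with 8.76 and 8.59 in SC8 against 9.62 and 9.86 in SR8.

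FIT2 and FIT3 lie next to each other in the genome, between the reductase genes FRE3 and FRE5, with YOR381W-A on the side of FRE3. FIT2 measured 6.66 and 8.10 in DMSO at 1 h against 7.90 and 10.32 in benomyl at 1 h, groups that overlap. At 4 h FIT2 was at 6.80 and 6.98 in DMSO and at 8.61 and 9.74 in benomyl, with both benomyl arrays on top. FIT3 followed the same order, at 9.45 and 10.62 in DMSO and 10.39 and 11.72 in benomyl at 1 h, and at 9.70 and 9.84 in DMSO and 11.26 and 11.95 in benomyl at 4 h. Over the 11 sporulation group means FIT2 and FIT3 correlated at r = 0.941, while FIT1 correlated with FIT2 at -0.157 and with FIT3 at -0.212. These coefficients describe 11 points from shared array sets and carry no test. The neighbouring FRE3 stayed near the bottom of the signal range, from 4.20 to 5.75 over all arrays, and FRE5 from 3.63 to 5.93.

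Of the siderophore transporters, SIT1 carries ferrioxamine, ARN1 ferrichromes, ARN2 triacetylfusarinine and ENB1 enterobactin. SIT1 was at 8.25 and 8.35 in glucose, 11.53 and 12.00 in acetate and 11.47 and 11.88 in SP4. It measured 11.24 and 11.88 in DMSO at 1 h but 9.03 and 10.33 in benomyl at 1 h, and then 10.53 and 10.69 in DMSO at 4 h but 12.14 and 12.31 in benomyl at 4 h. The benomyl arrays thus lay wholly below their controls at 1 h and wholly above them at 4 h. At 10 °C SIT1 was at 11.55 and 11.62 at 1 h and at 10.09 and 10.06 at 4 h, against 11.12 and 11.11 and then 11.47 and 11.45 in the filtered controls. In the order of its group means, benomyl at 4 h stood clear above SR4 (11.91 and 12.08), and SB5 stood clear above glucose, while SR4, YPA, SP4, SC5 and SD5 each overlapped with the next in line.

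ARN1 went the other way from SIT1 in benomyl at 1 h, with 8.71 and 9.44 against 7.27 and 7.55 in DMSO. At 4 h ARN1 stood at 7.61 and 8.16 in benomyl and at 6.65 and 6.27 in DMSO, the lowest group of all for ARN1, glucose (8.39 and 8.11) included. ARN2 measured 8.44 and 9.16 in DMSO and 8.42 and 9.52 in benomyl at 1 h, and 8.57 and 8.55 in DMSO and 10.07 and 11.19 in benomyl at 4 h. Its highest group was SR4, at 10.75 and 10.80, which overlapped with benomyl at 4 h. ENB1 varied least among the transporters over the 11 sporulation groups, at 9.16 and 9.47 in DMSO and 9.17 and 9.37 in benomyl at 1 h, and at 8.50 and 8.76 in DMSO and 9.37 and 10.49 in benomyl at 4 h. Its range over the sporulation groups, 1.30, stood at percentile 58.7 of all tested probe sets.

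FET3 and FTR1 encode the ferroxidase and the permease of high-affinity uptake. FET3 was at 6.39 and 6.94 in glucose and 9.53 and 10.25 in acetate. FET3 measured 8.27 and 8.60 in DMSO and 6.90 and 8.32 in benomyl at 1 h, then 7.56 and 7.55 in DMSO and 8.74 and 9.14 in benomyl at 4 h. FTR1 measured 7.93 and 8.59 in DMSO and 7.65 and 7.97 in benomyl at 1 h, then 7.86 and 7.73 in DMSO and 8.66 and 9.36 in benomyl at 4 h. Both subunits overlapped with their controls at 1 h and stood clear above them at 4 h, and their 11 sporulation group means correlated at r = 0.947, the highest of the 45 pairs of members. FTR1 had its highest mean in SR4 (9.23 and 9.51), and 10 of the 12 neighbouring pairs in its order of groups overlapped.

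TIS11, the mRNA-binding regulator, had the widest spread between arrays of a group. It was at 4.42 and 4.63 in glucose, 7.00 and 9.02 in acetate, 7.22 and 8.02 in SP4 and 8.16 and 8.38 in SR4. TIS11 measured 5.70 and 7.09 in DMSO and 5.34 and 7.73 in benomyl at 1 h, then 6.65 and 7.28 in DMSO and 7.37 and 8.82 in benomyl at 4 h. Its residual SD around the group means, 0.780, was above that of 99.9% of tested probe sets, whose median was 0.175. Only glucose stood clear of its neighbour in the order of its groups, and the other 11 neighbouring pairs overlapped.

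Benomyl at 4 h raised 8 of the 10 members over the DMSO controls of the same time. FIT2 was 4.88-fold higher (log2 difference 2.29 ± 0.55, SE, limma adjusted p = 0.00343), ARN2 4.20-fold (2.07 ± 0.41, adjusted p = 0.000679), FIT3 3.56-fold (1.83 ± 0.41, adjusted p = 0.00209) and SIT1 3.07-fold (1.62 ± 0.29, adjusted p = 0.000279). ARN1, FET3, ENB1 and FTR1 rose by 1.42, 1.38, 1.30 and 1.21 on the log2 scale, with adjusted p-values between 0.00254 and 0.00274. TIS11 differed by 1.13 ± 0.66 (adjusted p = 0.214) with both benomyl arrays above both controls, and FIT1 by -0.31 ± 0.39 (adjusted p = 0.586). The median over the members was 1.40 against 0.08 over all 7876 tested probe sets, of which 16.6% rose and 15.9% fell. Benomyl and DMSO arrays separated upwards for 9 of 10 members and for 45.7% of all probe sets. The first-day arrays alone gave a median of 1.07 and the second-day arrays 1.68, and with scan day as a block 9 members passed, since TIS11 was added. Without SB8 replicate 2 only 5 members passed, and FIT2 (1.72, adjusted p = 0.0662), ENB1 (0.73, adjusted p = 0.0906) and FTR1 (0.87, adjusted p = 0.0647) did not.

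Levels before filtration give a second reference for benomyl at 4 h. The mean in benomyl lay above both SP4 and DMSO at 4 h for 9 of 10 members, and for the same 9 the mean in DMSO at 4 h lay below that in SP4. FIT2 stood at 7.44 in SP4, 6.89 in DMSO at 4 h and 9.18 in benomyl at 4 h, FIT3 at 10.01, 9.77 and 11.60 and ARN2 at 9.56, 8.56 and 10.63. For FIT2, FIT3, SIT1 and FET3 both benomyl arrays lay above all SP4 and DMSO arrays. For ARN2 both lay above the DMSO arrays, but the lower of them, at 10.07, was below the higher SP4 array, at 10.09. ARN1 stood at 7.73, 6.46 and 7.88, FTR1 at 8.69, 7.80 and 9.01, ENB1 at 9.52, 8.63 and 9.93 and FET3 at 8.50, 7.55 and 8.94. SIT1 stood at 11.67, 10.61 and 12.23 and TIS11 at 7.62, 6.96 and 8.09. FIT1 was the exception, at 9.83, 10.03 and 9.72. In SR4, the second-set culture before filtration, ARN1 (7.92), ARN2 (10.78), FET3 (9.46), FTR1 (9.37) and TIS11 (8.27) had means above those in benomyl at 4 h. The means of FIT1, FIT2, FIT3, SIT1 and ENB1 were lower in SR4 than in benomyl at 4 h. These levels are set side by side with no test.

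At 1 h the members split under benomyl. FIT2 rose 3.32-fold (1.73 ± 0.55, limma adjusted p = 0.0133), ARN1 3.17-fold (1.66 ± 0.33, adjusted p = 0.000357) and FIT3 2.03-fold (1.02 ± 0.41, adjusted p = 0.0453), while SIT1 fell 3.68-fold (-1.88 ± 0.29, adjusted p = 2.85e-05) and FET3 1.77-fold (-0.82 ± 0.32, adjusted p = 0.0392). The other 5 members lay between -0.45 for FTR1 and 0.17 for ARN2. With 3 of 10 higher and 2 of 10 lower, the members were called about as often as all probe sets, of which 25.6% rose and 26.8% fell, and their median was 0.05 against 0.01, with -0.03 and 0.13 within the 2 scan days. The 2 SB5 arrays disagreed in size for several members: without SB5 replicate 2, FIT2 was at 0.52 (adjusted p = 0.385) and FIT3 at 0.36 (adjusted p = 0.533), so that 3 members passed. Without SB5 replicate 1, FET3 was at -0.11 (adjusted p = 0.745), and without SD5 replicate 1 only SIT1 and ARN1 passed. FET3 also lost its call without SD5 replicate 2, at -0.66 (adjusted p = 0.199). SIT1 and ARN1 kept theirs without each of these arrays in turn, but other fits left 1 call each. SIT1 was lost with only the groups compared in the fit (adjusted p = 0.0623), where ARN1 passed, and ARN1 was lost with array weights (adjusted p = 0.0501), where SIT1 passed.

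**Figure D2:**
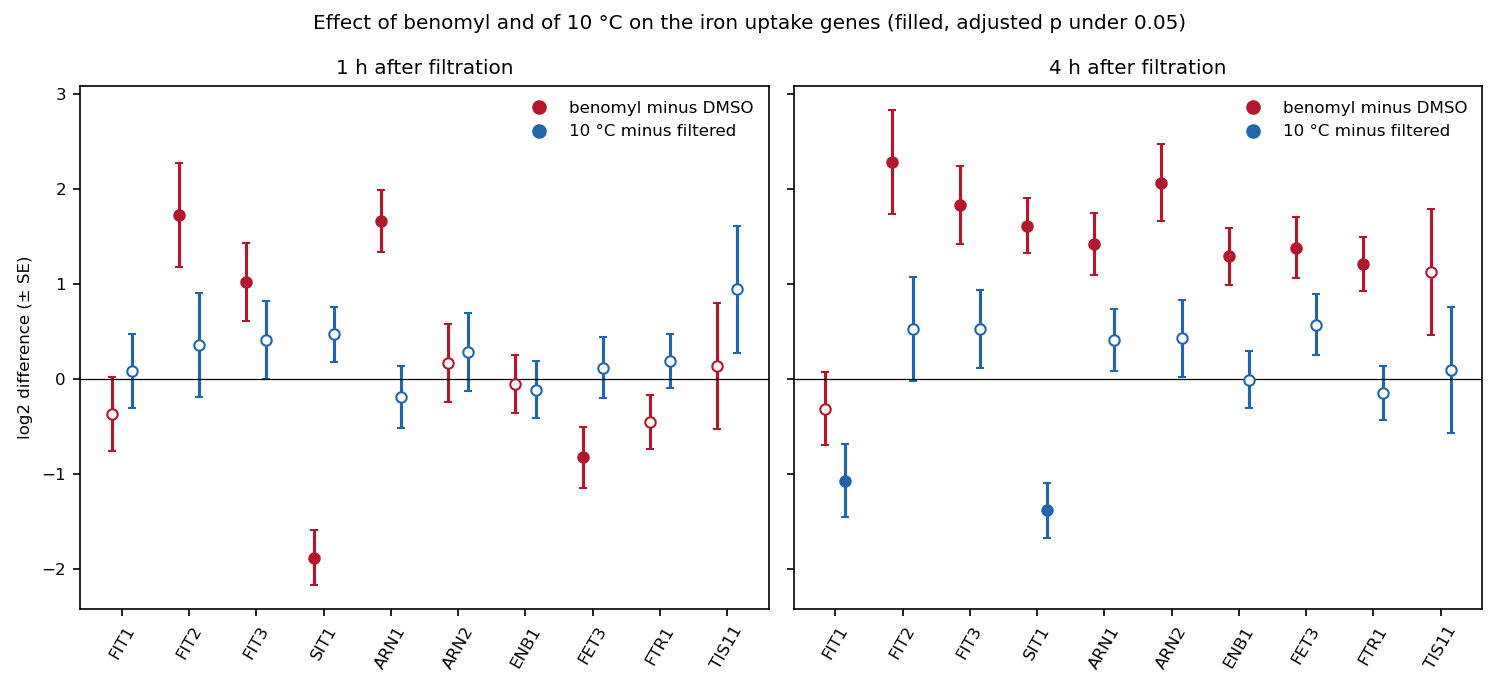
Log2 difference of each iron uptake gene between benomyl and DMSO (red) and between 10 °C and filtered cells (blue), 1 h after filtration on the left and 4 h on the right; points are differences of group means of 2 arrays, bars are the standard error from limma, and filled points passed an adjusted p of 0.05. In benomyl, 3 genes are higher and 2 lower at 1 h and 8 higher at 4 h, while at 10 °C only FIT1 and SIT1 are lower, at 4 h.

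The change of the benomyl effect between 1 h and 4 h was tested directly as an interaction. It passed upwards for 5 members: SIT1 (3.50 ± 0.41, limma adjusted p = 2.23e-06), FET3 (2.21 ± 0.45, adjusted p = 0.000663), ARN2 (1.90 ± 0.58, adjusted p = 0.0117), FTR1 (1.67 ± 0.40, adjusted p = 0.00233) and ENB1 (1.34 ± 0.43, adjusted p = 0.0153). Of all probe sets, 24.2% passed upwards and 21.5% downwards. For the others the interaction was small or imprecise, from -0.24 for ARN1 (95% interval -1.22 to 0.73) to 0.99 for TIS11 (-0.98 to 2.96). ARN2 lost its call without SD5 replicate 2 (1.54, adjusted p = 0.0641), SB8 replicate 2 (1.34, adjusted p = 0.0823) or SB5 replicate 1 (1.35, adjusted p = 0.0566). ENB1 lost it without SD8 replicate 1 (1.21, adjusted p = 0.0564), SD5 replicate 2 (1.19, adjusted p = 0.0608) or SB8 replicate 2 (0.78, adjusted p = 0.121). Without SB5 replicate 2, 8 members passed.

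Between the 2 benomyl times themselves, SIT1 rose 5.83-fold from 1 h to 4 h (2.54 ± 0.29, limma adjusted p = 8.87e-07), ARN2 3.17-fold (1.67 ± 0.41, adjusted p = 0.00238), FET3 2.51-fold (1.33 ± 0.32, adjusted p = 0.00216) and FTR1 2.30-fold (1.20 ± 0.28, adjusted p = 0.00172), and ARN1 fell 2.28-fold (-1.19 ± 0.33, adjusted p = 0.00568). The counts, 4 higher and 1 lower of 10, stand beside 25.5% and 24% of all probe sets. ARN1 lost its call without SB8 replicate 1 (-0.92, adjusted p = 0.0797) or SB5 replicate 2 (-0.83, adjusted p = 0.0861), ARN2 without SB8 replicate 2 (1.11, adjusted p = 0.0659) and FET3 without SB5 replicate 1 (0.62, adjusted p = 0.0554). FIT2 and FIT3, which had risen at 1 h, differed between the times by 0.07 ± 0.55 and 0.55 ± 0.41.

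At 10 °C the members changed little. At 1 h none passed, at a median of 0.24, and none had an unadjusted p under 0.05, while 11.7% of all probe sets rose and 8.35% fell by limma. TIS11 had the largest difference, 0.95 ± 0.66, with 7.16 and 7.80 in cold against 6.37 and 6.70 in the filtered cells. At 4 h 2 members fell, SIT1 by 2.60-fold (-1.38 ± 0.29, limma adjusted p = 0.00103) and FIT1 by 2.10-fold (-1.07 ± 0.39, adjusted p = 0.0382), and none rose, beside 16.8% lower and 19.4% higher among all probe sets. Of the 8 others, 6 were above 0, the largest being FET3 at 0.57 ± 0.32. FIT1 lost its call without any 1 of the 4 arrays, with values from -1.19 to -0.95 and adjusted p-values from 0.0823 to 0.177.

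The control decides how cold looks for SIT1. The cold medium held DMSO and the filtered controls are not labelled as holding it. Against the DMSO arrays of the first set, which differ in array set as well, SIT1 at 4 h was at -0.53 (limma adjusted p = 0.121). There 5 members were higher and only FIT1 (-1.36, adjusted p = 0.00556) was lower, and the share of all probe sets is not given here. Between the sets alone, in filtered cells at 1 h, 9 of 10 members lay above 0 in the second set. Of all probe sets, 10.8% were higher there and 11.7% lower. The part of the array set in the cold counts against DMSO was not tested. From 1 h to 4 h in cold, a comparison within the second set, SIT1 fell by 2.85-fold (-1.51 ± 0.29, limma adjusted p = 0.00479). No other member passed, beside 2.43% of all probe sets higher and 2.74% lower, and without SC5 replicate 2 SIT1 was at -1.47 (adjusted p = 0.0544). Taken against the filtered controls, the cold effect changed between 1 h and 4 h for SIT1 only, at -1.85 ± 0.41 (limma adjusted p = 0.00689). Of all probe sets, 2.83% passed upwards and 5% downwards. SIT1 means at 1 h and 4 h were 11.59 and 10.08 in cold, 11.12 and 11.46 in the filtered controls and 11.56 and 10.61 in DMSO. The change of the cold effect against the DMSO arrays was not tested.

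Benomyl and cold were then compared with each other, as effects against their own controls. At 1 h the difference passed for SIT1, downwards at -2.35 ± 0.41 (limma adjusted p = 0.000166), and for ARN1, upwards at 1.85 ± 0.46 (adjusted p = 0.00375), beside 20.4% of all probe sets upwards and 21.8% downwards. At 4 h the benomyl effect lay above the cold effect for all 10 members, with a median difference of 1.30. Of these differences 4 passed: SIT1 (3.0 ± 0.41, limma adjusted p = 3.96e-05), FTR1 (1.36 ± 0.40, adjusted p = 0.0171), ENB1 (1.30 ± 0.43, adjusted p = 0.0305) and ARN2 (1.64 ± 0.58, adjusted p = 0.0421). Upward and downward calls took 13.4% of all probe sets each. SIT1 had the opposite sign under the 2 treatments at both times, but its cold difference at 1 h (0.47 ± 0.29, limma adjusted p = 0.271) was not called. The comparison sets arrays of the first set against arrays of the second, each within its own set. The benomyl controls held DMSO, whereas the cold controls are not labelled as holding it, though the cold medium did. The part of DMSO in these differences was not tested. Leaving out an array cost calls at 4 h in 7 of 8 cases, leaving 1 to 2 members: 1 without SB8 replicate 2 (SIT1, with ARN2 at 1.08, ENB1 at 0.74 and FTR1 at 1.01), SC8 replicate 1 or SR8 replicate 2, and 2 without either SD8 array, SC8 replicate 2 or SR8 replicate 1.

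No member was called higher in the time courses without benomyl or cold. From 1 h to 4 h in DMSO, SIT1 fell 1.94-fold (-0.95 ± 0.29, limma adjusted p = 0.0124), ARN1 1.93-fold (-0.95 ± 0.33, adjusted p = 0.0254) and FET3 1.84-fold (-0.88 ± 0.32, adjusted p = 0.0339), and none rose, beside 25.8% lower and 17.8% higher among all probe sets. The largest positive difference was TIS11 at 0.57 ± 0.66. The called members were lower on both scan days, with differences of -0.71 on the first and -1.19 on the second for SIT1, -0.62 and -1.28 for ARN1 and -0.71 and -1.05 for FET3. The median over all 10 members, which go both ways, was 0.03 on the first day and -0.82 on the second, against -0.48 over both. These calls were thin. With values as deposited none was left (SIT1 at an adjusted p of 0.061, ARN1 at 0.0511 and FET3 at 0.0932). None was left without SD5 replicate 2 (SIT1 at -0.64, ARN1 at -0.81, FET3 at -0.71), 1 without SD8 replicate 1 (ARN1, with SIT1 at -0.88 and FET3 at -0.88) and 1 without SD8 replicate 2 (SIT1, with ARN1 at -0.76 and FET3 at -0.87), and FET3 was also lost without SD5 replicate 1 (-1.04, adjusted p = 0.0526). Between 1 h and 4 h in filtered cells of the second set no member passed by limma and none had an unadjusted p under 0.05, with a median of 0.01, beside 5.47% of all probe sets higher and 2.63% lower. SIT1 differed there by 0.34 ± 0.29, and the difference between the time courses with and without DMSO was not tested.

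Filtration into fresh medium was followed by lower mean signals of all 10 members at 1 h in both array sets, though none passed the adjusted test in the fit to all groups. In the first set the median difference from before filtration was -0.66 (-0.30 and -0.64 within the 2 scan days), from -0.29 for FET3 to -1.54 for TIS11, and both SF5 arrays lay below both SP4 arrays for 9 of 10 members and for 31.1% of all probe sets. By limma 4 of 10 members (FIT3, SIT1, ARN2 and TIS11) had an unadjusted p under 0.05, all downwards, beside 5.98% of all probe sets, and after adjustment 2.16% of all probe sets were higher and 0.927% lower. In the second set the median was -0.57, from -0.29 for ARN1 to -1.73 for TIS11, both SR5 arrays lay below both SR4 arrays for 8 of 10 members and for 24% of all probe sets, and 4 members (FIT2, SIT1, ARN2 and TIS11) had an unadjusted p under 0.05, beside 9.14% of all probe sets downwards. After adjustment 0.686% of all probe sets were higher and 1.69% lower. These calls depend on the fit: weighting the arrays let 3 members pass in the first set, and fitting the compared groups alone let 4 pass in the first set and 3 in the second, all downwards. TIS11 was among the lower ones in both sets, from 7.22 and 8.02 to 5.83 and 6.32 in the first set and from 8.16 and 8.38 to 6.37 and 6.70 in the second.

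For DMSO itself at 1 h no member passed the adjusted test, with wide intervals. Against filtered cells of the first set, 9 of 10 members were above 0 with a median of 0.27 (0.00 and 0.55 within the scan days), none passed by limma, 1 (FIT3, 1.00 ± 0.41, adjusted p = 0.484) had an unadjusted p under 0.05, and 0.356% of all probe sets were higher and 0.216% lower. FIT3 measured 9.45 and 10.62 with DMSO and 8.49 and 9.56 without, which overlap, and the 95% interval of its difference ran from 0.14 to 1.87. FIT2 was at 0.97 ± 0.55, with both DMSO arrays, at 6.66 and 8.10, above both others, at 6.18 and 6.65.

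The same nominal condition differed between array sets. Before filtration ARN2 was 2.32-fold higher in the second set (1.21 ± 0.41, limma adjusted p = 0.0364) and FET3 1.94-fold (0.95 ± 0.32, adjusted p = 0.0369), none was lower, and FIT2 at 1.30 ± 0.55 had an adjusted p of 0.0902. All probe sets gave 11.7% higher and 13.5% lower. The calls depended on single arrays, since none was left without SP4 replicate 1 (ARN2 at 0.69, FET3 at 0.80), SR4 replicate 1 (1.24 and 1.02) or SR4 replicate 2 (1.19 and 0.89), and without SP4 replicate 2 FET3 was at 1.11 (adjusted p = 0.0768). In filtered cells at 1 h no member passed by limma, although 9 of 10 were above 0 with a median of 0.64 and 4 (FIT3, ARN2, FET3 and FTR1) had an unadjusted p under 0.05, beside 17.4% of all probe sets upwards. After adjustment 10.8% of all probe sets were higher and 11.7% lower. Without SF5 replicate 2, 1 member passed.

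Arrays of a group moved together for the members. In the first set replicate 1 of 7 groups was scanned on a first day and replicate 2 on a second, and all or most members were higher on the second-day array: all 10 in YPA, SD5 and SB8, 9 in SB5 and SP4, and 6 in SD8 and SF5. The median difference was 1.20 in SB5, 1.06 in YPA, 0.83 in SB8, 0.65 in SD5, 0.41 in SP4, 0.18 in SF5 and 0.14 in SD8, while the median over all tested probe sets lay between -0.01 and 0.03 in the 6 sporulation groups. FIT2 and TIS11 differed most, by 2.42 and 2.39 in SB5. Fitted as a term over the 6 sporulation groups, a comparison chosen after the values were seen, the second day was higher by 1.19 ± 0.23 for TIS11, 0.98 ± 0.27 for FIT2, 0.71 ± 0.20 for FIT3, 0.65 ± 0.19 for ARN2 and 0.53 ± 0.14 for SIT1, and by 0.26 to 0.44 for the 5 others. After adjustment 0% of all 7876 probe sets passed in each direction by limma, with an adjusted p of 0.868 for every member, while an unadjusted p under 0.05 with a higher second day was seen for 8 of 10 members and for 1.93% of all probe sets. In the second set, for which no scan day was at hand, replicate 2 was above replicate 1 for 10 members in SR4 and SC5, 8 in SR5 and SR8 and 3 in SC8, with medians from -0.03 to 0.23. Replicate number and scan day go together in the first set and cannot be told apart.

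**Figure D3:**
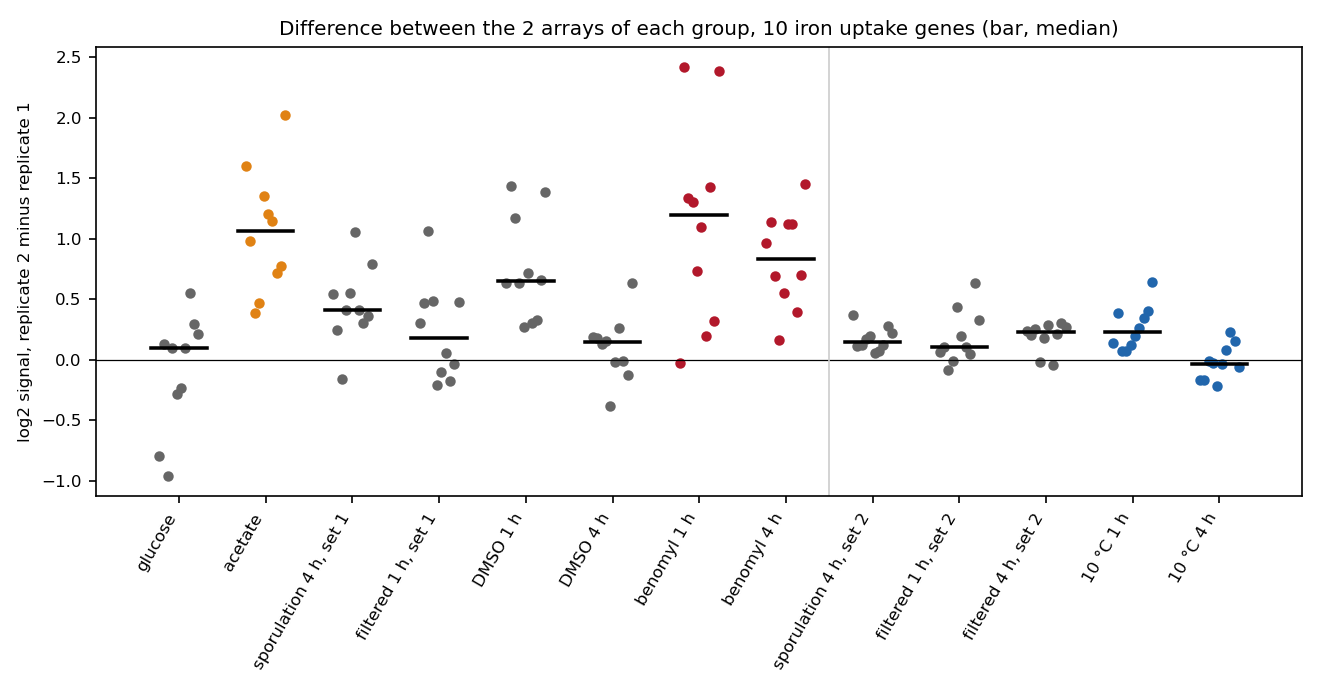
Log2 signal of replicate 2 minus replicate 1 for each of the 10 iron uptake genes in each group, with a bar at the median over the genes and a grey line between the first and the second array set. The medians reach 1.20 in benomyl at 1 h, 1.06 in acetate and 0.83 in benomyl at 4 h, and lie between -0.03 and 0.23 in the 5 groups of the second set.

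The deviations of single arrays from their group means correlated positively for all 45 pairs of members, with a median r of 0.766 and a range from 0.348 to 0.948 over 26 arrays, and a median of 0.701 over the 24 arrays other than acetate. In groups of 2 the deviations mirror each other, so these points hold 1 difference per group. The group means correlated less, with a median r of 0.646 over 13 groups (42 of 45 pairs above 0) and 0.562 over the 11 sporulation groups (39 of 45 above 0). The pairs farthest below 0 over the sporulation groups were FIT1 with ARN1 (-0.408), FIT1 with FET3 (-0.242) and SIT1 with ARN1 (-0.214). FET3 with FTR1 (0.947), FIT2 with FIT3 (0.941) and ARN2 with TIS11 (0.859) stood at the other end. All values are descriptions over arrays that share sets and normalization.

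The lists of other iron genes below were drawn up with results of these data known, so their counts describe them and support nothing further. They stand beside the shares of all probe sets given above, 25.6% higher and 26.8% lower in benomyl at 1 h, 16.6% and 15.9% at 4 h, 11.7% and 8.35% in cold at 1 h and 19.4% and 16.8% at 4 h. The regulators of the pathway moved at 1 h of benomyl, when the members were split. Of 8 regulators measured, 7 rose and none fell: AFT2 (1.40 ± 0.19, limma adjusted p = 6.69e-06), YAP5, an activator of genes of the vacuolar iron store (1.43 ± 0.20, adjusted p = 9.11e-06), AFT1 (1.31 ± 0.22, adjusted p = 8.05e-05) and GRX4, a glutaredoxin that restrains AFT1 (1.89 ± 0.33, adjusted p = 0.000105) led them. AFT1 measured 7.44 and 8.27 in benomyl against 6.31 and 6.76 in DMSO. At 4 h AFT1 remained higher (1.07 ± 0.22, adjusted p = 0.00113), AFT2 was at 0.41 ± 0.19 (adjusted p = 0.107), YAP5 was higher by 0.91, and FRA1 and BOL2, which relay the iron signal to AFT1, fell (-0.85 and -0.90). In cold, AFT1 was at 0.23 ± 0.22 (adjusted p = 0.501) at 1 h and rose by 0.61 ± 0.22 (adjusted p = 0.039) at 4 h, and AFT2 was at 0.38 ± 0.19 (adjusted p = 0.17) and then rose by 0.89 ± 0.19 (adjusted p = 0.0012). The counts of regulators in cold were 2 higher of 8 at 1 h, CTH1, the paralog of TIS11, at 0.96 and the glutaredoxin GRX3 at 0.44, and at 4 h 4 higher and 2 lower of 8. Without SB5 replicate 2 the count at 1 h of benomyl was 4 higher of 8.

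**Figure D4:**
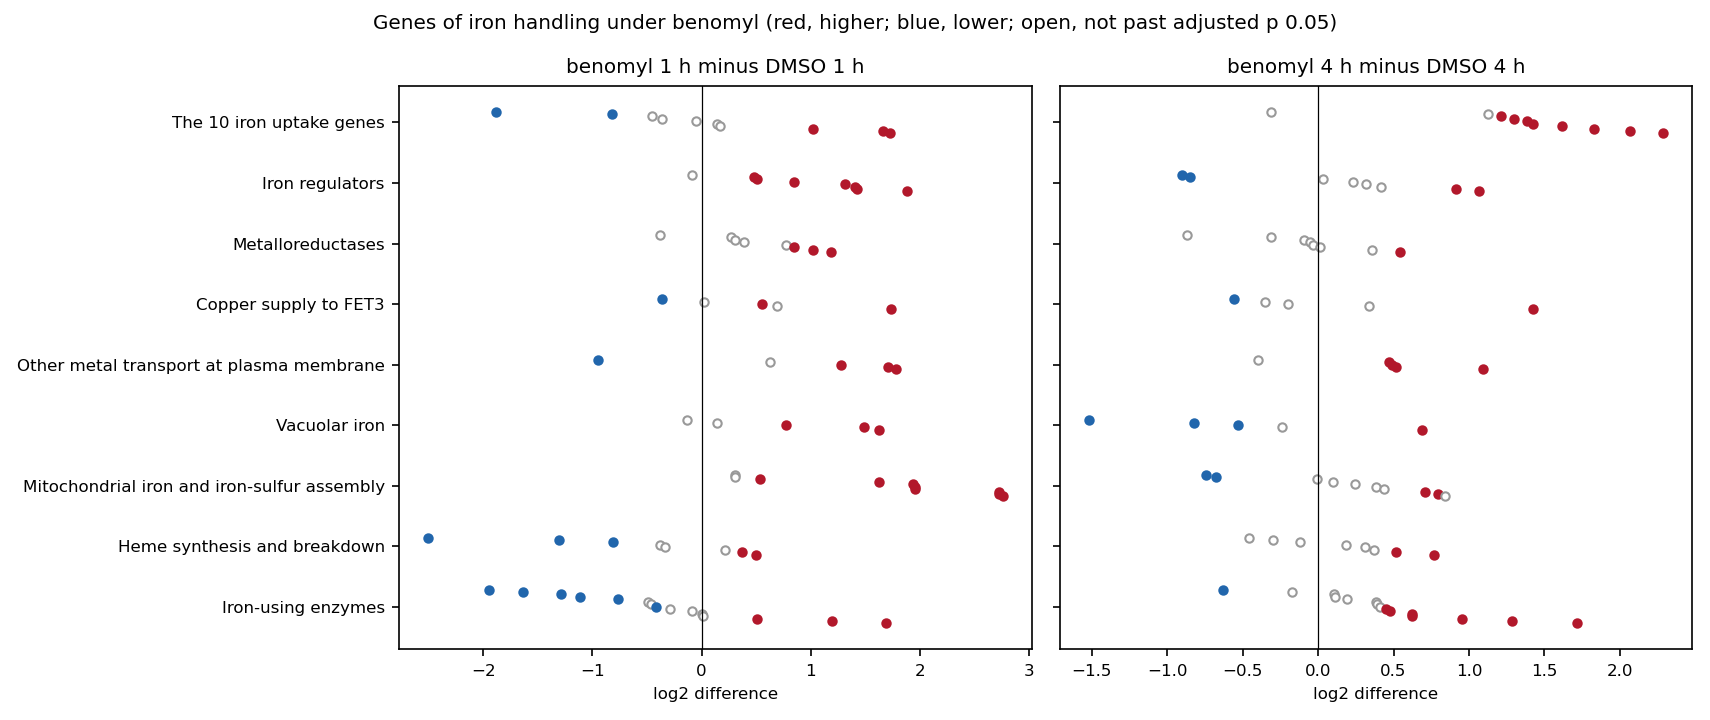
Log2 difference between benomyl and DMSO at 1 h (left) and 4 h (right) for the 10 iron uptake genes and for 8 lists of other genes of iron handling, 1 point per gene, red where higher and blue where lower at an adjusted p of 0.05 and open where neither. At 4 h the uptake genes lie to the right with a median of 1.40, while the medians of the other lists lie between -0.53 and 0.49.

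Of 8 surface and vacuolar reductases, 3 rose in benomyl at 1 h, where 25.6% of all probe sets rose, and 1 at 4 h, FRE8 (0.55). At 1 h these were FRE8 (1.18 ± 0.16, limma adjusted p = 7.02e-06), the vacuolar FRE6 (0.85 ± 0.15, adjusted p = 9.44e-05) and FRE5 (1.02 ± 0.24, adjusted p = 0.0019). FRE5 signals ran low on all arrays, as given above, around the filter cut of log2 5.44. Without SB5 replicate 1 the count at 1 h was 6 and without SB5 replicate 2 it was 2. None of the 8 reductases passed in cold at 1 h, and at 4 h FRE2 rose by 0.84 while FRE6 (-0.73) and FRE1 (-1.39), a main reductase of the surface, fell. Of 5 genes that supply copper to FET3, the copper transporter CTR1 (1.73 ± 0.20, adjusted p = 7.42e-07) and the chaperone ATX1 (0.55) rose at 1 h of benomyl and the regulator MAC1 (-0.36) fell. At 4 h the transporter CTR3 rose (1.42 ± 0.31, adjusted p = 0.00181) and ATX1 fell (-0.56), in cold none passed at 1 h, and ATX1 (-0.64), CCC2 (-0.64) and CTR3 (-0.83) fell at 4 h. Beside these shifts stand the lower meiotic transcripts, whose part was not tested. Without SB5 replicate 2 the copper list had 1 gene higher and none lower at 1 h.

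Of 5 other metal transporters, SMF2 (1.78 ± 0.14, limma adjusted p = 5.19e-09), ZRT2 (1.71 ± 0.16, adjusted p = 8.19e-08) and ZRT1 (1.27 ± 0.15) rose at 1 h of benomyl and SMF1 (-0.95) fell, and at 4 h ZRT1 (1.09), ZRT2 (0.51), SMF2 (0.49) and SMF1 (0.47) rose. The probe set of ZRT1 can match near-identical sequences, so its values are uncertain. In cold, ZRT1 fell at 1 h (-0.66) and rose by 0.80 at 4 h, when SMF1 (-0.63) fell. Of 5 genes of the vacuolar store, CCC1, the importer into the vacuole (1.63 ± 0.17, adjusted p = 3.83e-07), SMF3, an exporter (1.49), and COT1 (0.77) rose at 1 h of benomyl. At 4 h CCC1 (-1.52 ± 0.17, adjusted p = 2.57e-06) and the vacuolar ferroxidase and permease FET5 (-0.82) and FTH1 (-0.53) fell and SMF3 (0.69) rose. In cold 1 of 5 fell at 1 h, SMF3 (-0.98), and 4 of 5 at 4 h, FET5 (-1.44), FTH1 (-0.89), SMF3 (-0.85) and CCC1 (-0.76).

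Within the mitochondrion, 8 of 10 genes of iron import and iron-sulfur assembly rose at 1 h of benomyl, with a median of 1.95. Among them were NFS1, the cysteine desulfurase (1.63 ± 0.15, limma adjusted p = 5.7e-08), GRX5 (1.94 ± 0.19, adjusted p = 1.27e-07), ISA2 (2.73 ± 0.29, adjusted p = 3.68e-07) and the frataxin YFH1 (2.72 ± 0.31, adjusted p = 8.63e-07), and none fell. At 4 h the scaffold ISU1 (0.79) and NFS1 (0.71) rose and GRX5 (-0.74) and the carrier MRS3 (-0.68) fell. In cold 1 of 10 rose at 1 h, MRS3 (0.46), and 2 of 10 fell at 4 h, GRX5 (-0.95) and ISU2 (-1.30). Of 8 genes of heme metabolism, the heme oxygenase HMX1 (-2.51 ± 0.25, adjusted p = 1.46e-07), HEM12 (-0.81) and HEM15 (-1.30), which inserts iron into heme, fell at 1 h of benomyl, and 2 of 8 rose, HEM3 (0.50) among them. HMX1 measured 8.32 and 7.29 there against 10.37 and 10.25 in DMSO. At 4 h HEM2 (0.77) and HEM1 (0.52) rose and none fell. In cold HEM3 (0.45) rose at 1 h, and at 4 h HEM1 (0.52) rose and HEM12 (-0.51) and HEM14 (-0.34) fell. Without SB5 replicate 1, 1 gene of heme metabolism rose at 1 h of benomyl and 5 fell.

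Iron-using enzymes, among them mRNAs of the kind that TIS11 targets, were called in both directions at 1 h of benomyl, with 6 of 15 lower and 3 higher, beside 26.8% lower and 25.6% higher among all probe sets. ERG25 of sterol synthesis (-1.95 ± 0.18, limma adjusted p = 7.91e-08) and the aconitase ACO1 (-1.64 ± 0.20, adjusted p = 2.46e-06) fell, and the ribonucleotide reductase subunits RNR2 (1.69 ± 0.20, adjusted p = 1.01e-06) and RNR4 (1.20 ± 0.16, adjusted p = 7.55e-06) rose. At 4 h, when the uptake genes were higher, 7 of 15 rose and 1 fell, led by LEU1 (1.28 ± 0.21, adjusted p = 9.6e-05), the biotin synthase BIO2 (1.71 ± 0.32, adjusted p = 0.000403), CYT1 (0.95) and SDH3 (0.62). In cold, LEU1 (-1.24) and GLT1 (-0.66) fell and RNR4 (0.76) and RNR2 (0.69) rose at 1 h, and at 4 h 4 of 15 rose, RNR4 (1.29) and BIO2 (1.29) among them, and 3 of 15 fell, SDH4 (-0.55) and LEU1 (-0.87) among them. Without SB5 replicate 2 the counts at 1 h of benomyl were 2 higher and 4 lower.

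The 5 genes outside the members whose 13 group means followed the members' mean profile most closely, of 5454 genes compared by Pearson's r, were AMS1 (0.881), a vacuolar mannosidase, BNA6 (0.817) of NAD synthesis, CPR1 (0.814), a cyclophilin whose probe set is uncertain, RSP5 (0.809), a ubiquitin ligase, and VMR1 (0.809), a vacuolar transporter. All 5 were lowest in glucose, as was the members' mean. Over the 11 sporulation groups alone AMS1 stood at 0.849, VMR1 at 0.722, CPR1 at 0.681, RSP5 at 0.658 and BNA6 at 0.549.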

How the data were processed

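The authors deposited log2 signals of 9335 probe sets for 26 arrays. How they were computed is not given in the sources used here, and base 2 is assumed because the signals span 2.09 to 15.1. Scanner settings of the 16 first-set arrays, a unit of the kind "other", were read per the file headers and served only to order 3 scan days.

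Arrays were brought to common quantiles. Of the probe sets, 60 controls and 1399 dim ones (no group mean above log2 5.44, percentile 25 of the signals) were dropped and 7876 tested. The supplied annotation names 1 gene for 6504 probe sets and several for 328, and 0 columns lacked a label. In limma 3.58.1 (R 4.3.3), 1 mean per group was estimated from all arrays, with a variance trend and 13 residual degrees of freedom, and p-values were adjusted after Benjamini and Hochberg over all tested probe sets at a threshold of 0.05. Each ± is the model's standard error, and 2 arrays per group limit the precision. Drawing used matplotlib 3.10.9. The code was tested on simulated data.

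The members, lists and comparisons were chosen with earlier results of these data known. All members are named. From each list at most 4 called genes with the smallest adjusted p per treatment comparison are named, plus AFT1 and AFT2, and the 5 genes most like the members' profile. The brightest probe set stood for a gene, and probe sets with the suffix s, f, i, r or g are called uncertain. Neighbouring genes come from the supplied RefSeq table. Alternatives covered normalization, filter, variance trend, array weights, the groups in the fit, replicate or scan day as a block, other controls and each array left out. Deviations of same-numbered arrays correlated at -0.155 to 0.309 (first set) and -0.289 to 0.391 (second set), so the numbers were not taken to pair arrays.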

Additional observations from a re-analysis of the deposited data

Results flagged for a closer look

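Differences between treatment effects that passed their own test are collected here, on the log2 scale. Between benomyl and cold at 1 h, SIT1 differed by -2.35 and ARN1 by 1.85. At 4 h SIT1 differed by 3.0, ARN2 by 1.64, ENB1 by 1.30 and FTR1 by 1.36. Between 4 h and 1 h, the benomyl effect differed by 3.50 for SIT1, 1.90 for ARN2, 1.34 for ENB1, 2.21 for FET3 and 1.67 for FTR1. The cold effect, taken against the filtered controls, differed by -1.85 for SIT1. No group held enough arrays for a test of single outlying arrays.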

How the results depend on the processing

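Of 38 calls of single members, 12 held under every alternative run, 26 were lost under at least 1 and 0 changed sign. The 12 include FIT3, SIT1, ARN1, ARN2 and FET3 in benomyl at 4 h, and SIT1 in 5 other comparisons. For the differences between treatment effects no other control was run, so for those calls the choice of control was not tested. The counts of members that moved by over 1.5 times follow; the cause was not tested, beyond the smaller number of arrays in some fits. With values as deposited, DMSO 4 h against 1 h gave 0 instead of 3, the array sets before filtration 1 instead of 2, and benomyl against cold at 4 h 2 instead of 4. Median centring gave 1 instead of 2 for cold at 4 h and 2 instead of 4 for benomyl against cold at 4 h. Array weights gave 1 instead of 5 for benomyl at 1 h, 2 instead of 5 for benomyl 4 h against 1 h, 3 instead of 0 for filtration in the first set, 4 instead of 2 for the sets before filtration, 1 instead of 2 and 8 instead of 4 for benomyl against cold at 1 h and 4 h, and 3 instead of 5 for the change of the benomyl effect. With only the groups compared in the fit, the counts were 1 for benomyl at 1 h, 1 and 7 for cold at 1 h and 4 h, 5 for DMSO 4 h against 1 h, 1 for benomyl 4 h against 1 h, 3 for cold 4 h against 1 h, 4 and 3 for filtration in the first and second set, 6 and 2 for the sets before and after filtration, 8 for benomyl against cold at 4 h, and 3 and 2 for the changes of the benomyl and cold effects. With DMSO arrays as controls, cold gave 1 member at 1 h and 6 at 4 h. With a replicate block, filtration gave 1 in the first set and 3 in the second, and the sets 4 before and 5 after filtration; the block moved no other count by as much. Leaving out 1 array gave 2 to 4 members for benomyl at 1 h, 5 to 8 at 4 h, 1 for cold at 4 h, 0 to 2 for DMSO 4 h against 1 h, 0 to 1 for cold 4 h against 1 h, 0 to 1 for the sets before and after filtration, 1 to 4 for benomyl against cold at 4 h and 3 to 8 for the change of the benomyl effect. A second probe set could not be tried, since each member has 1. With 2 arrays per group the precision was lowest for TIS11 and FIT2 (standard errors 0.66 and 0.55), and TIS11 differences as large as -1.73 and 1.56 were not called.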
